A study of Mus musculus with 120 samples.

Results

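Gene expression was compared between neurons of 2 thalamic nuclei of the mouse, VPMpc and RE. VPMpc is the parvicellular part of the ventral posteromedial nucleus, and RE is the nucleus reuniens of the midline. The comparison took the 6 libraries of VPMpc neurons and the 8 libraries of RE neurons, 14 of the 120 libraries of the series, by the nucleus, tracer and target in their titles. The pair was selected on measured values: both nuclei lie high on the second principal component (PC2) of the 22 nuclei sampled. PC2 scores, genes high in both nuclei, and the levels of Bnc2 and Slco1a5, which were given as markers of the pair, are therefore a description and carry no test. The differences between VPMpc and RE were tested.

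All 14 mice were wild type, and each gave 1 of the 14 libraries. Thalamic neurons were labelled by DiI, a lipophilic dye that travels back along axons, injected into insular cortex for VPMpc and into cingulate cortex for RE. Labelled neurons were picked by hand, and 35 to 102 cells were pooled per VPMpc library and 31 to 168 per RE library. The VPMpc mice were 5 males and 1 female with deposited ages of 62 to 447, and the RE mice were 3 males and 5 females with deposited ages of 55 to 114. No unit of age is stated. Each group stands only for the neurons that project to its injected area, so nucleus and target cannot be told apart. VPMpc cDNA was amplified on 2 dates, with 4 libraries on one and replicates 1 and 2, from the mice aged 446 and 447, on the other. RE cDNA was amplified on 2 other dates with 4 libraries each. The earlier RE date held replicates 1 to 4, all from females, and the later held replicates 5 to 8, with all 3 males. Within RE, date and sex were thus partly tied. No date was shared, so the amplification date and the nucleus cannot be told apart, and no date held both nuclei.

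As background, VPMpc is the thalamic relay of taste and of sensation from the viscera, and it projects to the gustatory and visceral part of insular cortex. RE is a midline nucleus that connects medial prefrontal cortex with the hippocampal formation and projects to both. Thalamic projection neurons are glutamatergic, use VGLUT2, the vesicular glutamate transporter encoded by Slc17a6, and express the transcription factor Tcf7l2. Nuclei differ in the ion channels, receptors, adhesion molecules and transcription factors they express.

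The libraries held 11115400 to 16610395 counts in VPMpc and 14040459 to 26444831 in RE. Genes with at least 1 read numbered 11031 to 13417 in VPMpc (median 12167) and 13042 to 15101 in RE (median 14351.5). This number was lower in VPMpc (exact two-sided permutation test, p = 0.000666, adjusted p = 0.004 over 12 technical measures). With every library thinned to the lowest total, the numbers were 10949 to 13330 and 12930 to 14887, with the same p. Total counts (adjusted p = 0.155), cells per library (0.513), the share of counts from Rn18s-rs5, a ribosomal RNA gene (0.291), and the share of uniquely mapped reads that were counted (0.513) did not pass. No pair of libraries within either group agreed within sampling noise (chi-square per degree of freedom of 60.3 to 369 over 43 pairs). All values are from pooled cells, in which fewer cells of a type and less RNA per cell cannot be told apart.

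Principal components were computed from the nucleus means of log2 CPM (counts scaled to the size of the library) over the 500 genes that varied most across nuclei. PC1 held 49.8% of the variance and PC2 14.9%. VPMpc had the highest PC2 score, 32.4, and RE the third, 20.9, just below MD (21.2) and just above PO (20.1) and LP (19.7). The next nucleus, VM, was at 6.17. The libraries of VPMpc lay at 30.7 to 33.7 on PC2 and those of RE at 17.8 to 24.4, so the ranges did not overlap. The RE libraries of the earlier amplification date lay at 17.8 to 20.1 and those of the later at 20.2 to 24.4. Their PC1 scores were -19.1 to -15.5 and -14.8 to -9.82. On PC1, the axis of most variance, VPMpc scored 7.14, which ranked 12th, and RE scored -14.6, which ranked 15th. Over the 500 genes, centred across nuclei, VPMpc was most like MD (Pearson r = 0.58), LP and PO (both 0.55) and only then RE (0.41). RE was most like VPMpc (0.41), followed by SPA (0.33) and IMD (0.27). These correlations are across genes, which are not independent replicates. Of the genes with the largest PC2 weights, Gpr26, which encodes an orphan receptor, had a mean of 208 CPM in VPMpc and 76.3 CPM in RE. Its highest mean in the other 20 nuclei was 57.1 CPM, in IAD. Lpl, which encodes lipoprotein lipase, was at 47.8 CPM in VPMpc and 75.8 CPM in RE and reached 31.1 CPM elsewhere, in MD. Atp2b4, a plasma membrane calcium pump, was at 119 CPM in VPMpc, 106 CPM in RE and 121 CPM in LP. The VPMpc mean of Atp2b4 rested on replicate 2, at 328 CPM, and was 77.3 CPM without it, which ranked 4th. Adgrf5, an adhesion receptor with the largest weight, was at 583 CPM in VPMpc, 40.5 CPM in RE and 551 CPM in PO. RE ranked 7th for Adgrf5, 6th for Gpr4 and 9th for Hpca. For Necab1 VPMpc ranked 11th and RE 12th. For Plcxd3 and Gabrg1 RE ranked 1st and VPMpc 3rd, and for Adgrg6 they ranked 3rd and 4th. Gpr26 and Lpl thus lay high in both nuclei, Atp2b4 lay as high or higher in LP, and not all genes of large weight were high in both.

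**Figure D1:**
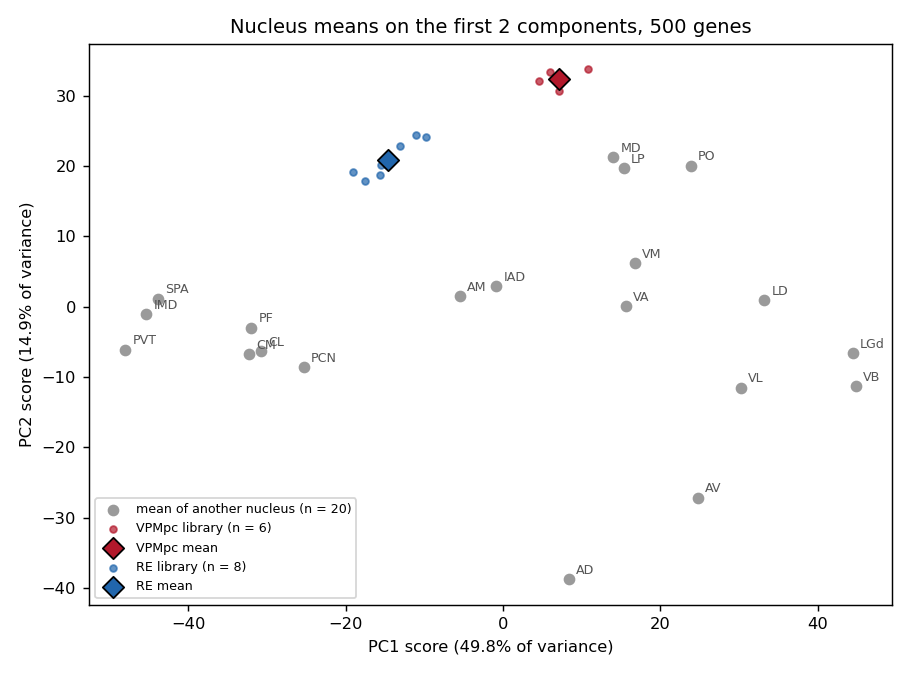
Scores of the 22 nuclei on PC1 (x axis) and PC2 (y axis), without unit, with each nucleus mean as a large point and the 6 VPMpc and 8 RE libraries as small points. VPMpc (PC2 32.4) and RE (20.9) both lie at the top of PC2 and are apart from each other on PC1 (7.14 and -14.6).

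Between the nuclei, 1532 of 16527 genes tested were called at an adjusted p under 0.05 (edgeR's quasi-likelihood test with Benjamini-Hochberg adjustment over all genes), which is 9.27%. Of these, 886 (5.36%) were higher in VPMpc and 646 (3.91%) were higher in RE. The ranges of the 14 libraries did not overlap for 233 of the genes higher in VPMpc (1.41% of the genes tested) and for 171 of those higher in RE (1.03%). The directions differed in kind. Genes higher in VPMpc were mostly abundant genes with moderate differences, with a median of 204 CPM in VPMpc and a median log2 fold change of 1.24. Genes higher in RE were mostly low genes with large differences, with a median of 6.89 CPM in RE and a median log2 fold change of -5.29. Of the genes higher in RE, 250 had no read in any VPMpc library, against 53 of the genes higher in VPMpc that had no read in RE. Among genes with at least 10 CPM in the higher group, 790 were higher in VPMpc and 279 in RE of 9537. Genes of at least 10 CPM that were higher in VPMpc were long, with a median exon length of 5765 bases against 3783 for all genes of that level and 3650 for those higher in RE. In 4 equal groups of these genes from the shortest to the longest, 3.23%, 5.01%, 7.49% and 17.4% were higher in VPMpc and 3.06%, 3.07%, 2.82% and 2.77% were higher in RE. With offsets that remove the trend with length from each library, 957 genes were higher in VPMpc and 539 in RE, and these included 699 and 498 of the genes called without them. DESeq2 called 912 genes higher in VPMpc and 1335 in RE, so the majority changed direction, and the newer quasi-likelihood method called 1537 and 666. The genes higher in RE numbered 417 without VPMpc replicate 2 and 425 without VPMpc replicate 4.

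**Figure D2:**
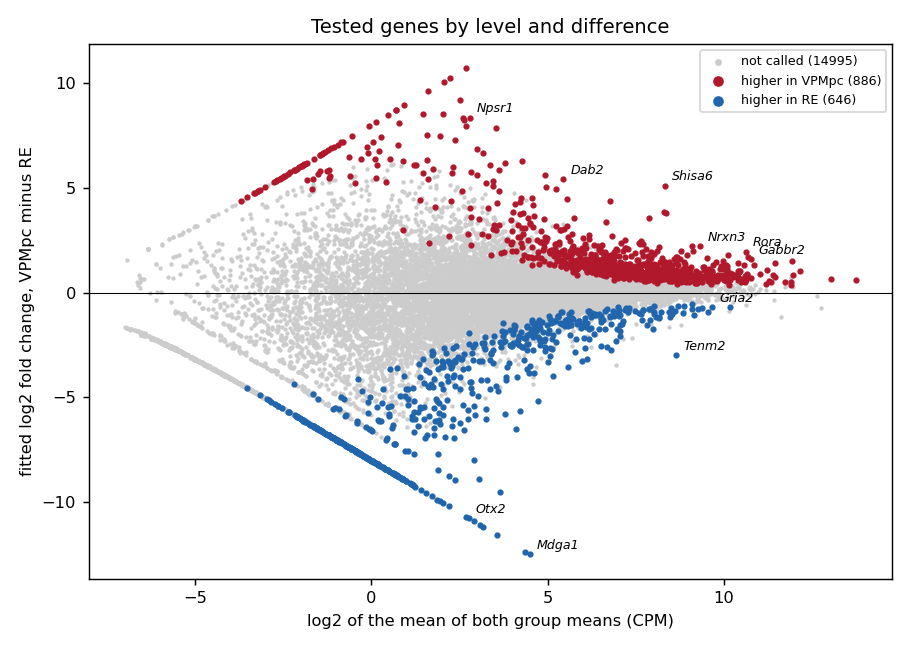
Fitted log2 fold change, VPMpc minus RE (y axis), by the log2 of the mean of both group means in CPM (x axis), 1 point a gene, with 294 genes left off the level axis. The 886 genes higher in VPMpc (red) gather at high levels and moderate differences, the 646 higher in RE (blue) at lower levels and larger differences, and the straight edges are genes without a read in 1 of the groups.

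Bnc2 (ENSMUSG00000028487.18, chr4:84275095-84675275 in GRCm38), a zinc finger transcription factor, was at 105 to 348 CPM in VPMpc (median 198) and 0.311 to 38.4 CPM in RE (median 5.91). The ranges did not overlap, and the ratio of the means was 20.8-fold. By means, VPMpc ranked 1st and RE, at 9.97 CPM, 2nd of the 22 nuclei, with MD next at 6.58 CPM. The median of RE lay below that mean of MD, so the place of RE rests on its highest libraries. The RE value rested most on replicate 6, at 38.4 CPM, and without it the fitted log2 fold change moved from 4.38 to 5.13. Slco1a5 (ENSMUSG00000063975.13, chr6:142234227-142322981), an organic anion transporter, had no read in the 6 VPMpc libraries and was at 5.73 to 93.6 CPM in RE (median 12.5). By means it was thus at least 581-fold higher in RE, counting up to 3 reads over the VPMpc libraries. All 8 RE libraries had reads, but replicate 3, at 93.6 CPM, lay far above the others, of which the highest was at 24.8 CPM. Without it the RE mean fell from 23.4 to 13.4 CPM, so the bound would be lower. The fitted log2 fold change then moved from -11.56 to -10.75. No nucleus other than RE had a mean above 0.284 CPM, in VM. So of the pair's markers, Bnc2 was shared at unequal levels and Slco1a5 was present in RE alone of the pair.

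The bases before the start of Slco1a5 are shown as the sequence next to the gene with the highest ratio of RE to any other nucleus. They are from RefSeq (GRCm38.p6, chr6:142322982-142323231, minus strand), printed 5′ to 3′ and ending 1 base before the annotated start. They were searched on both strands for TAATCC, the core that Otx2 binds, and AGGTCA, the half-site that Rora binds, because the genes of both factors differed between the nuclei.
Slco1a5: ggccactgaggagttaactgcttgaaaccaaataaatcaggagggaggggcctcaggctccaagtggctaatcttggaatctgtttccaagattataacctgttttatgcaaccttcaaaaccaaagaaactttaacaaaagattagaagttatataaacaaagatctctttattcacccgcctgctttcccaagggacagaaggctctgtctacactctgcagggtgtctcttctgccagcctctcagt
Neither motif was found, and so no letters are in capitals. Among 9725 windows of the same length, 6.03% held TAATCC and 13.7% held AGGTCA. Of the 15 genes with the largest differences in each direction, 3 of those higher in RE and 4 of those higher in VPMpc had a window, and none held either motif.

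Several genes present in RE were absent from VPMpc. Mdga1 (ENSMUSG00000043557.15, chr17:29827949-29970087), which encodes a synaptic protein that binds neuroligins, had no read in VPMpc and was at 20.3 to 112 CPM in RE (median 34.7). It was at least 1110.1-fold higher in RE (adjusted p = 4.58e-06). Trhr, the receptor of thyrotropin-releasing hormone, had no read in VPMpc and was at 3.07 to 79.9 CPM in RE (median 36.99), at least 1021-fold higher (adjusted p = 0.000275). These genes were found in all 8 RE libraries and in no VPMpc library. Drd1, the D1 dopamine receptor, likewise had no read in VPMpc and was at 3.16 to 29.6 CPM in RE (median 13.6), at least 371-fold higher (adjusted p = 8.24e-05). Otx2, a homeobox transcription factor of the developing forebrain and midbrain, had no read in VPMpc and was at 2.42 to 31.95 CPM in RE (median 8.25), at least 336-fold higher (adjusted p = 0.00178). DESeq2 did not call Trhr (adjusted p = 0.34, and 9.16e-06 to 0.34 over all alternatives) or Otx2 (0.202, and 0.000302 to 0.202). Within RE, Trhr and Drd1 parted by amplification date. Trhr was at 40.8 to 79.9 CPM on the earlier date (replicates 1 to 4) and 3.07 to 33.2 CPM on the later. Drd1 was at 18.8 to 29.6 CPM and 3.16 to 8.38 CPM, while Otx2 and Mdga1 overlapped between the dates. The cause was not tested. Pcsk5, a proprotein convertase, and Vwa5b1 were at medians of 12.2 and 18.9 CPM in RE with no read in VPMpc, and Dkk3, a secreted protein of the Dickkopf family, was at 0 to 0.372 CPM in VPMpc (median 0.116) and 3.62 to 23.5 CPM in RE (median 11.04). The adjusted p-values were 7.73e-07, 0.000136 and 0.00652. Read against the 20 other nuclei, these genes differed. Mdga1 was highest in RE, at a mean of 44.7 CPM, with IMD next at 27.4 CPM. Trhr and Otx2 were highest in RE, with the next nucleus at 2.74 CPM (SPA) and 2.06 CPM (AM). Pcsk5 and Drd1 were higher elsewhere, at 175 CPM in CM and 36.8 CPM in AD, and VPMpc ranked 19th and 20th in them.

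The largest differences towards VPMpc were in genes that RE expressed at low levels. Shisa6 (ENSMUSG00000053930.13, chr11:66211725-66525964), which encodes an auxiliary subunit of AMPA-type glutamate receptors, was at 321 to 1259 CPM in VPMpc (median 494) and 2.62 to 39.4 CPM in RE (median 12.6). Every VPMpc library lay above every RE library, and the difference was 34.5-fold (log2 fold change 5.11 ± 0.42 (SE), adjusted p = 3.51e-18). Prkcd, protein kinase C delta, a known marker of thalamic relay nuclei, was at 451 to 808 CPM in VPMpc (median 618) and 9.37 to 129.7 CPM in RE (median 24.99). These ranges did not overlap either (log2 fold change 3.79 ± 0.40 (SE), adjusted p = 1.56e-12). Npsr1, the receptor of neuropeptide S, was at 0.771 to 47.2 CPM in VPMpc (median 8.95) and 0 to 0.311 CPM in RE (median 0) (log2 fold change 8.33 ± 1.69 (SE), adjusted p = 0.000275), and the log2 fold change was 10.78 without RE replicate 2 and 7.37 without VPMpc replicate 5. Its level thus spread widely within VPMpc. Adgrf5, an adhesion receptor, was at 334 to 752 CPM in VPMpc (median 592) and 0 to 149 CPM in RE (median 8.05), without overlap (log2 fold change 3.85 ± 1.02 (SE), adjusted p = 0.00827), and the log2 fold change was 4.54 without RE replicate 6. Within RE, Adgrf5 was at 0 to 5.52 CPM on the earlier amplification date and 10.6 to 149 CPM on the later. Its call was lost in 4 of 30 alternatives, among them the later RE date alone. Prkcd was at 9.37 to 23.7 CPM on the earlier RE date and 26.3 to 129.7 CPM on the later. Dab2, an endocytic adaptor, Fign, a microtubule-severing enzyme, Slc4a4, a sodium bicarbonate cotransporter, and Sh3d19 were 42.9-fold, 11.7-fold, 10.3-fold and 5.62-fold higher in VPMpc, each without overlap (adjusted p = 0.000207, 3.73e-05, 3.94e-07 and 1.24e-13). Fign was at 0.276 to 16.9 CPM on the earlier RE date and 31.7 to 100 CPM on the later. By means, only Adgrf5 of these genes was highest of the 22 nuclei in VPMpc, with PO next at 551 CPM. VPMpc ranked 10th for Prkcd, with 1809 CPM in VL. Shisa6 and Sh3d19 were highest in MD (832 and 423 CPM) and Fign in PO (453 CPM). Npsr1 and Slc4a4 were highest in AV (189 and 294 CPM) and Dab2 in VB (146 CPM).

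**Figure D3:**
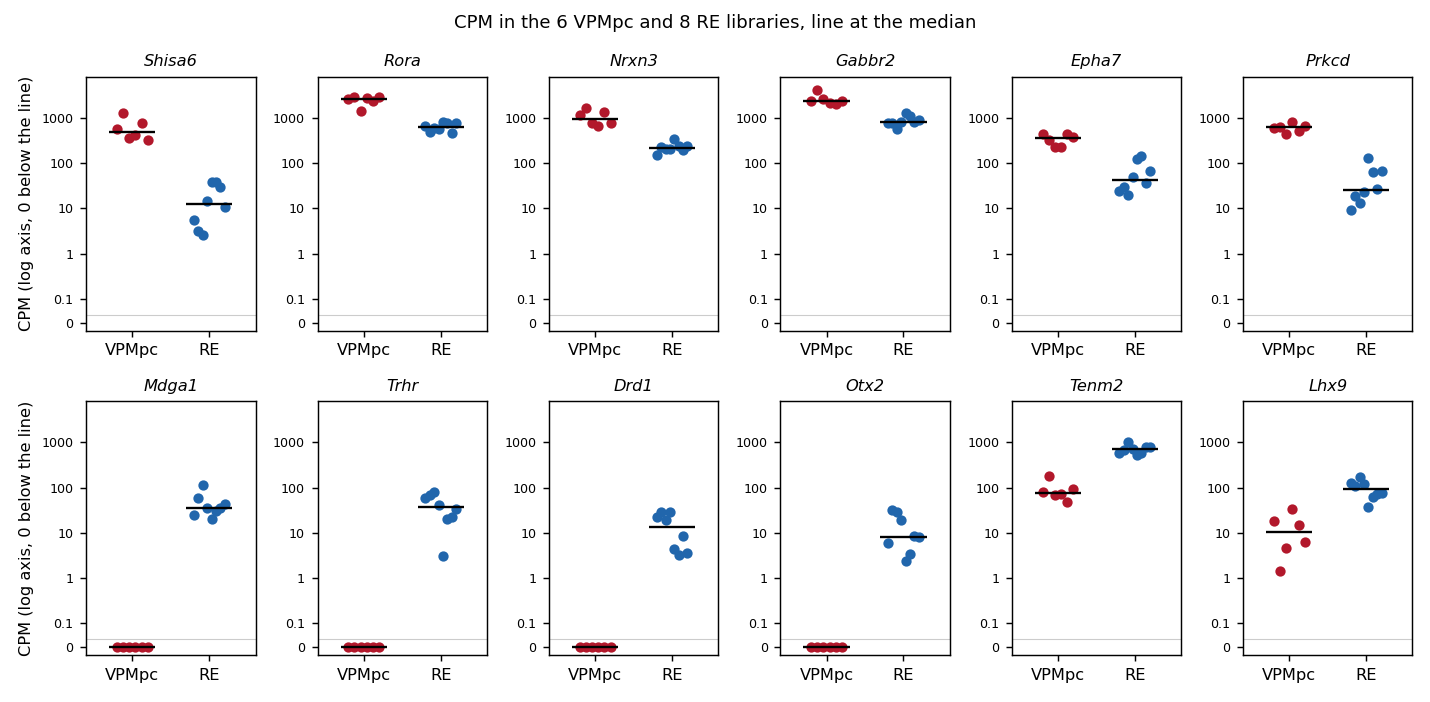
CPM (log axis) in each of the 6 VPMpc libraries (red) and 8 RE libraries (blue) for 6 genes higher in VPMpc (top) and 6 higher in RE (bottom). Each point is 1 library, the line is the median, and points below the grey line are libraries without a read. The groups overlap in none of the 12 genes, and Mdga1, Trhr, Drd1 and Otx2 have no read in any VPMpc library.

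The labelled identity of the cells was checked with markers. All 7 markers of thalamic projection neurons were detected in both nuclei, and their summed level was 7960 to 11977 CPM in VPMpc and 3636 to 4808 CPM in RE. Of the 7, 6 were higher in VPMpc and none was higher in RE by edgeR, by DESeq2 or at an unadjusted p under 0.05. Rora (ENSMUSG00000032238.17, chr9:68653786-69388246), a nuclear receptor, was at 1418 to 2957 CPM in VPMpc (median 2674) and 472 to 828 CPM in RE (median 638). The groups were well apart (log2 fold change 1.95 ± 0.18 (SE), adjusted p = 8.82e-16). Lef1, a transcription factor of the Wnt pathway, was 4.24-fold higher in VPMpc (log2 fold change 2.09 ± 0.25 (SE), adjusted p = 2.49e-10). Tcf7l2, its relative, Ntng1, an axonal adhesion protein, and Slc17a6 had log2 fold changes of 0.89 ± 0.16, 0.87 ± 0.14 and 0.80 ± 0.15 (SE), with adjusted p = 1.97e-05, 1.28e-06 and 9.12e-05. The remaining one was Prkcd. The marker that did not pass was Gbx2, a homeobox factor of the developing thalamus, at 0 to 113 CPM in VPMpc (median 14.3) and 35.2 to 73.6 CPM in RE (median 47.3) (adjusted p = 0.575). RE had the lowest mean of the 22 nuclei for Ntng1 and Slc17a6, whose mean was still 717 CPM.

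Few markers of other cells could be tested, and 2 of them were called. Of 9 oligodendrocyte markers, all were tested and none was called by edgeR (unadjusted p under 0.05 for 1, and 1 call by DESeq2, both higher in RE). Their summed level was 1.47 to 363 CPM in VPMpc (median 68.6) and 15.8 to 381 CPM in RE (median 33.9). Their level thus varied widely among libraries of both groups. Of the 7 astrocyte markers only Aldoc could be tested, at 0 to 1.45 CPM in VPMpc (median 0.553) and 5.03 to 14.6 CPM in RE (median 11.8). It was higher in RE (log2 fold change -4.01 ± 0.70 (SE), adjusted p = 1.09e-05), where it ranked 17th of the 22 nuclei. Of 6 markers of GABAergic neurons of the reticular nucleus and zona incerta only Sst, the gene of somatostatin, could be tested. Sst had no read in VPMpc and was at 0 to 28.6 CPM in RE (median 0). By means it was at least 97.04-fold higher in RE (adjusted p = 0.0188), but the RE mean and this bound rested on replicate 3. Only 3 of the 8 RE libraries had reads. The log2 fold change was -5.68 without RE replicate 3 (adjusted p = 0.0782, and 5.22e-06 to 0.273 over all alternatives), which ended the call. None of the 8 endothelial and mural or 5 ependymal and choroid plexus markers could be tested. The single microglial, habenular and hypothalamic markers that could be tested, and both of the oligodendrocyte precursor, were not called by edgeR (1 of these 5, the habenular one, had an unadjusted p under 0.05 and was called by DESeq2, higher in RE). The part of other cell types in the differences was not tested.

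More of the transcription factors were higher in VPMpc than in RE. Of 18 homeobox factors tested, 5 were higher in VPMpc and 2 in RE (median log2 fold change 0.50). With the offsets for gene length the counts were 3 and 2. Of 39 other factors, with Bnc2 left out as a marker of the pair, 13 were higher in VPMpc and 4 in RE (median 0.29). Over all genes the shares were 5.36% and 3.91%, and the median log2 fold change was -0.01. The lists of genes used here were drawn up with earlier results of these data known, and their counts are descriptions. The sign of a list's median changed with the offsets for gene length for voltage-gated potassium channels, potassium channel auxiliary subunits, metabotropic glutamate receptors, amine and adenosine receptors, neuropeptides, cadherins, axon guidance, RGS proteins and oxidative phosphorylation, and with DESeq2's size factors for metabotropic glutamate receptors and axon guidance. Lhx9, a LIM homeobox factor, was at 1.46 to 34.3 CPM in VPMpc (median 10.4) and 36.6 to 168 CPM in RE (median 92.9). It was higher in RE without overlap (log2 fold change -2.85 ± 0.39 (SE), adjusted p = 1.98e-08), and VPMpc had the lowest mean of the 22 nuclei. Zic4, a zinc finger factor, was 6.14-fold higher in RE (log2 fold change -2.62 ± 0.66 (SE), adjusted p = 0.00467). Sox5, an SRY-related factor, was at 44.5 to 152 CPM in VPMpc (median 94.7) and 0.312 to 22.98 CPM in RE (median 6.22). Its groups did not overlap (log2 fold change 3.54 ± 0.66 (SE), adjusted p = 5.32e-05). Onecut2 and Zfhx4 were 2.63-fold and 2.54-fold higher in VPMpc (adjusted p = 0.00169 and 0.000313). For Onecut2 the ranges overlapped, and for Zfhx4 they did not.

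Channel genes differed in both directions, with more of them higher in VPMpc. Over all genes 5.36% were higher in VPMpc and 3.91% in RE, and at 10 CPM or more 790 and 279 of 9537. More calls in VPMpc were thus not particular to channels or to the lists below. Of 26 voltage-gated potassium channels, 7 were higher in VPMpc and 2 in RE (median log2 fold change 0.26). Of 20 leak, inward rectifier and calcium- or sodium-activated potassium channels the counts were 3 and 2 (median 0.22), and of 11 potassium channel auxiliary subunits 2 and 1 (median 0). Kcnh7, an ERG-type channel subunit, was at 416 to 508 CPM in VPMpc (median 459) and 52.6 to 199 CPM in RE (median 144). All VPMpc libraries lay in a narrow band above every RE library (log2 fold change 1.63 ± 0.21 (SE), adjusted p = 1.22e-09). Kcnq3, a subunit of the M current, was 3.22-fold higher in VPMpc (log2 fold change 1.69 ± 0.30 (SE), adjusted p = 1.67e-05), although its ranges overlapped. Kcnj3 and Kcnj6, subunits of the channels that G proteins open, were 2.59-fold and 3.42-fold higher in VPMpc without overlap (adjusted p = 1.5e-05 and 0.000194), and Kcnip4, an A-type channel partner, was 2.06-fold higher (adjusted p = 0.000184). Kcnt1, a sodium-activated channel, went the other way at 15.6 to 44.5 CPM in VPMpc (median 37.6) and 55.7 to 118 CPM in RE (median 80.3). Its ranges did not overlap and its adjusted p was 0.0193, and the log2 fold change was -1.20 without VPMpc replicate 4 (adjusted p = 0.0593, and 0.00253 to 0.353 over all alternatives), which ended the call. VPMpc had the lowest Kcnt1 mean of the 22 nuclei.

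Of 13 sodium channel genes, 2 were higher in VPMpc and 1 in RE (median log2 fold change 0.26). Scn8a was 1.80-fold higher in VPMpc (log2 fold change 0.85 ± 0.17 (SE), adjusted p = 0.000252), while Scn2a was at 607 to 1183 CPM in VPMpc (median 881) and 911 to 1323 CPM in RE (median 1133) and did not pass (adjusted p = 0.213). Scn2a had its highest mean of all nuclei in RE and its next highest in VPMpc, at 896 CPM, close to IAD at 869 CPM. Of 20 calcium channel genes, 6 were higher in VPMpc and 2 in RE (median 0.27). Cacnb4, a beta subunit, was at 428 to 1053 CPM in VPMpc (median 677) and 223 to 348 CPM in RE (median 278). The groups did not overlap (log2 fold change 1.23 ± 0.18 (SE), adjusted p = 7.02e-08), and RE had the lowest mean of the 22 nuclei. Cacna1g, the main T-type channel of thalamic relay cells, was at 249 to 409.9 CPM in VPMpc (median 363) and 207 to 299 CPM in RE (median 230.5) and did not pass (adjusted p = 0.153). Of 5 HCN channels and partners only Pex5l, which encodes the HCN regulator TRIP8b, was called. It was 4.75-fold higher in VPMpc without overlap (log2 fold change 2.25 ± 0.29 (SE), adjusted p = 1.28e-09).

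Glutamate receptors differed by subunit. Of 17 ionotropic receptor genes, 7 were higher in VPMpc and 1 in RE, with a median log2 fold change of 0.53. With the offsets for gene length the counts were 5 and 1 (median 0.44). Of 7 metabotropic receptors, 2 were higher in VPMpc and none in RE (median 0.04, and none in RE by DESeq2 or at an unadjusted p under 0.05). Gria2, the AMPA receptor subunit that limits calcium entry, was the one higher in RE, at 575 to 679 CPM in VPMpc (median 624) and 893 to 1373 CPM in RE (median 935). Its ranges did not overlap (log2 fold change -0.70 ± 0.15 (SE), adjusted p = 0.000727), and RE and VPMpc had the highest and the next highest mean of all nuclei. The VPMpc mean, 620 CPM, lay close to that of IAD, 610.5 CPM. Gria3, another AMPA receptor subunit, was higher in VPMpc at 136 to 463 CPM in VPMpc (median 352) and 95.7 to 243 CPM in RE (median 123). Its ranges overlapped (log2 fold change 1.31 ± 0.25 (SE), adjusted p = 6.75e-05). Grid1, a delta-type receptor, was 2.54-fold higher in VPMpc (adjusted p = 0.00219), with overlap. Grin2c, an NMDA receptor subunit, was at 0.841 to 21.6 CPM in VPMpc (median 8.30) and 0 to 1.63 CPM in RE (median 0.0968). It was 21.3-fold higher in VPMpc (log2 fold change 4.35 ± 0.79 (SE), adjusted p = 3.19e-05), with overlap, and the log2 fold change was 5.11 without RE replicate 4. Both nuclei were low in it, ranking 18th and 22nd, with 74.2 CPM in VL.

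The window before the start of Grin2c is shown because Grin2c and Rora were both higher in VPMpc and this window holds 1 match to AGGTCA, in capitals, which begins 248 bases before the start. It is from RefSeq (GRCm38.p6, chr11:115267244-115267493, minus strand).
Grin2c: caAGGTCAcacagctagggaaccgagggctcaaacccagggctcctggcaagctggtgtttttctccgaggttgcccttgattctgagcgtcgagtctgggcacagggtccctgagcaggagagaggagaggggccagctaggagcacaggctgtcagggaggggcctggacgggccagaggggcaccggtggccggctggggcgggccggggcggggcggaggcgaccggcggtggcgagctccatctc
It held no match to TAATCC. The match is a run of letters shared with 13.7% of all windows and is not a measured binding site.

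Among receptor genes for GABA and glycine, 20 were tested, with 6 higher in VPMpc and 1 in RE (median log2 fold change 0.20). Gabbr2, a subunit of the GABAB receptor, was at 2047 to 4212 CPM in VPMpc (median 2365) and 578 to 1304 CPM in RE (median 811). Every VPMpc library lay above every RE library (log2 fold change 1.59 ± 0.16 (SE), adjusted p = 6.51e-14). Gabra4 and Gabrd encode subunits that join in receptors outside the synapse in thalamus. Gabra4 was 2.08-fold higher in VPMpc without overlap (log2 fold change 1.06 ± 0.16 (SE), adjusted p = 3.32e-07). Gabrd was at 0.486 to 156 CPM in VPMpc (median 29.6) and 0.621 to 6.62 CPM in RE (median 3.87). It was 12.5-fold higher in VPMpc (log2 fold change 3.64 ± 0.58 (SE), adjusted p = 1.41e-06) with overlap, and the log2 fold change was 2.67 without VPMpc replicate 2. Gabrq, which encodes the theta subunit, was the one higher in RE, at 0 to 3.71 CPM in VPMpc (median 0.0743) and 6.99 to 32.2 CPM in RE (median 20.5). Its ranges did not overlap (log2 fold change -4.61 ± 1.34 (SE), adjusted p = 0.0186), and the log2 fold change was -6.42 without VPMpc replicate 6.

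Receptors of amines and peptides were called in both directions. Of 12 dopamine, noradrenaline, histamine and adenosine receptors, 2 were higher in each nucleus (median log2 fold change -0.12). Hrh2, the H2 histamine receptor, was at 40.8 to 173 CPM in VPMpc (median 104) and 6.83 to 46.3 CPM in RE (median 28.2) and was higher in VPMpc (log2 fold change 1.87 ± 0.54 (SE), adjusted p = 0.016). Adora1, the A1 adenosine receptor, was at 188 to 584 CPM in VPMpc (median 286) and 38.3 to 264 CPM in RE (median 123) and was higher in VPMpc as well (log2 fold change 1.28 ± 0.28 (SE), adjusted p = 0.00102). Both genes overlapped between the groups, and both had their highest mean of the 22 nuclei in VPMpc. PO was next for both, at 76.6 CPM against 102 CPM for Hrh2 and at nearly the same level, 324 against 330 CPM, for Adora1. Of 21 peptide, opioid and cannabinoid receptors, 3 were higher in each nucleus (median -1.19). DESeq2 called 2 of them higher in VPMpc and 5 in RE, and 3 and 10 had an unadjusted p under 0.05. Ramp3, a receptor activity-modifying protein, was 7.92-fold higher in VPMpc without overlap (log2 fold change 2.98 ± 0.53 (SE), adjusted p = 1.95e-05). None of 5 serotonin receptors or 6 acetylcholine receptors was called by edgeR (median log2 fold changes -0.20 and -0.06; unadjusted p under 0.05 for 1 gene in each direction in each list, DESeq2 calls 0 and 1, calls of the newer quasi-likelihood method 1 and 0). Htr2c was at 121 to 628 CPM in VPMpc (median 189) and 8.48 to 137 CPM in RE (median 76.1) and did not pass (adjusted p = 0.0606).

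Downstream of these receptors, 3 of 12 RGS genes, which speed the end of G protein signals, were higher in VPMpc and 2 in RE (median log2 fold change -0.14). Rgs8 was 2.78-fold and Rgs16 2.43-fold higher in VPMpc (adjusted p = 3.22e-05 and 3.85e-05), each with overlapping ranges. Of 18 enzymes of cyclic nucleotides, 3 were higher in VPMpc and none in RE (median 0.08, and in RE 3 at an unadjusted p under 0.05, 3 by DESeq2 and 4 by the newer quasi-likelihood method). Adcy1, a calcium-stimulated adenylyl cyclase, was at 215 to 499 CPM in VPMpc (median 297) and 86.5 to 148 CPM in RE (median 125). The ranges did not overlap (log2 fold change 1.38 ± 0.22 (SE), adjusted p = 1.39e-06). Pde1a, a calcium-dependent phosphodiesterase, was at 3.86 to 34.5 CPM in VPMpc (median 21.2) and 114 to 322 CPM in RE (median 227) and did not pass (adjusted p = 0.0578) although its ranges did not overlap.

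Several abundant adhesion and guidance genes differed without overlap between the nuclei. Tenm2 (ENSMUSG00000049336.16, chr11:36006656-37235964), which encodes a teneurin that binds latrophilins across the synapse, was at 47.7 to 177 CPM in VPMpc (median 76.1) and 514 to 995 CPM in RE (median 705). Every RE library lay above every VPMpc library (log2 fold change -2.99 ± 0.24 (SE), adjusted p = 1.85e-18), and VPMpc had the lowest mean of the 22 nuclei. Nrxn3 (ENSMUSG00000066392.11, chr12:88722876-90334935), a presynaptic neurexin, went the other way, at 654 to 1649.7 CPM in VPMpc (median 970.2) and 155 to 337 CPM in RE (median 222). Its groups did not overlap (log2 fold change 2.22 ± 0.24 (SE), adjusted p = 1.7e-12). Of 61 synaptic and cell adhesion genes, 14 were higher in VPMpc and 5 in RE (median log2 fold change 0.13). With the offsets for gene length the counts were 10 and 5 (median 0.0095), and with DESeq2's size factors 11 and 5 (median 0.06). Cntnap3, a relative of the axonal protein Caspr, was at 0 to 14.02 CPM in VPMpc (median 0.969) and 22.97 to 68.8 CPM in RE (median 45.5). It was higher in RE (log2 fold change -3.84 ± 1.10 (SE), adjusted p = 0.0162), and the log2 fold change was -5.52 without VPMpc replicate 6. Of 14 cadherins, 4 were higher in VPMpc and none in RE (median -0.09, and in RE none by DESeq2 or at an unadjusted p under 0.05 and 1 by the newer quasi-likelihood method), among them Cdh12 at 3.79-fold (adjusted p = 1.2e-05). Of 10 delta protocadherins, 1 was higher in VPMpc and 2 in RE (median -0.54). Pcdh7 was 3.82-fold higher in VPMpc and Pcdh17 2.48-fold higher in RE (adjusted p = 6.08e-07 and 0.0089), both without overlap.

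Of 44 axon guidance genes, 8 were higher in VPMpc and 4 in RE (median log2 fold change 0.02). Epha7, an ephrin receptor, was at 224 to 454 CPM in VPMpc (median 353) and 19.4 to 144 CPM in RE (median 42.8). The groups did not overlap (log2 fold change 2.47 ± 0.31 (SE), adjusted p = 8.08e-10). Of 25 matrix genes, 3 were higher in VPMpc and 2 in RE (median 0.71). Fras1, a basement membrane protein gene, was 4.95-fold higher in VPMpc (log2 fold change 2.31 ± 0.47 (SE), adjusted p = 0.000267). Of 28 solute carriers, with Slco1a5 left out as a marker of the pair, 7 were higher in VPMpc and 1 in RE (median 0.28). Of 19 neurofilament and axon cytoskeleton genes, 2 were higher in VPMpc and 1 in RE (median -0.17). DESeq2 and the newer quasi-likelihood method each called 2 and 3, the offsets for gene length 2 and 0, and 3 and 6 had an unadjusted p under 0.05, so the balance of this list depended on the method.

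At the presynaptic side, 7 of 33 genes of vesicle fusion and transport were higher in VPMpc and 4 in RE (median log2 fold change -0.0016). Synaptotagmins, the calcium sensors of exocytosis and their relatives, differed in opposite directions. Syt9 was at 68.99 to 320.0 CPM in VPMpc (median 124) and 23.8 to 65.6 CPM in RE (median 44.96) and was higher in VPMpc (log2 fold change 1.78 ± 0.34 (SE), adjusted p = 9.33e-05). Syt4 was at 267 to 545 CPM in VPMpc (median 467) and 547 to 1019 CPM in RE (median 744) and was higher in RE (log2 fold change -0.77 ± 0.19 (SE), adjusted p = 0.00418). Neither gene overlapped between the groups. Of 23 secreted synaptic organisers, 2 were higher in each nucleus (median 0.05). C1ql3, a complement-related organiser that binds Adgrb3, was at 0 to 0.322 CPM in VPMpc (median 0.0382) and 2.48 to 15.3 CPM in RE (median 6.05). It was higher in RE without overlap (log2 fold change -6.14 ± 1.11 (SE), adjusted p = 2.8e-05), and the log2 fold change was -7.01 without VPMpc replicate 6. It was low in both nuclei beside SPA, at 264 CPM. Of 14 calcium-binding proteins, 4 were higher in VPMpc and none in RE (median 0.15, and in RE 3 at an unadjusted p under 0.05, none by DESeq2 and 2 by the newer quasi-likelihood method), with Necab3 at 21.3 to 236 CPM in VPMpc (median 169.9) and 19.9 to 62.1 CPM in RE (median 33.3) (log2 fold change 2.06 ± 0.47 (SE), adjusted p = 0.00135). Its groups overlapped. Of 15 neuropeptides, 1 was higher in each nucleus (median -0.30).

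More immediate early genes were higher in RE, and so were more genes of oxidative phosphorylation, the latter only without offsets for gene length. Of 11 immediate early genes, 1 was higher in VPMpc and 4 were higher in RE (median log2 fold change -0.52). Fosb was at 0 to 0.874 CPM in VPMpc (median 0.242) and 0.862 to 123 CPM in RE (median 16.1). It was higher in RE (log2 fold change -6.52 ± 1.76 (SE), adjusted p = 0.00958), with overlap, and the log2 fold change was -5.83 without RE replicate 3. Fos was at 0 to 14.5 CPM in VPMpc (median 4.98) and 1.90 to 114 CPM in RE (median 25.9) and was higher in RE (log2 fold change -2.61 ± 0.75 (SE), adjusted p = 0.0169), and the log2 fold change was -1.99 without RE replicate 3 (adjusted p = 0.0723, and 0.000514 to 0.427 over all alternatives) and -3.20 without VPMpc replicate 4. RE replicate 3 had the highest level of both genes. It was also the RE library with the fewest detected genes, 13042. Of 75 genes of oxidative phosphorylation, none was higher in VPMpc by edgeR (1 at an unadjusted p under 0.05) and 5 were higher in RE (median -0.38). Uqcr10, a subunit of complex III, was at 0.728 to 43.7 CPM in VPMpc (median 15.6) and 17.9 to 93.1 CPM in RE (median 64.02). It was higher in RE (log2 fold change -1.83 ± 0.44 (SE), adjusted p = 0.00249), with overlap. Atp5g3, a subunit of ATP synthase, was 2.28-fold higher in RE (log2 fold change -1.19 ± 0.35 (SE), adjusted p = 0.02), and the log2 fold change was -0.98 without VPMpc replicate 2 (adjusted p = 0.0773, and 0.00329 to 0.148 over all alternatives), which ended the call. VPMpc had the lowest mean of the 22 nuclei for both. With the offsets for gene length 4 of the 75 genes were higher in VPMpc and 1 in RE (median 0.08), and DESeq2, without offsets, called none higher in VPMpc and 15 higher in RE.

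**Figure D4:**
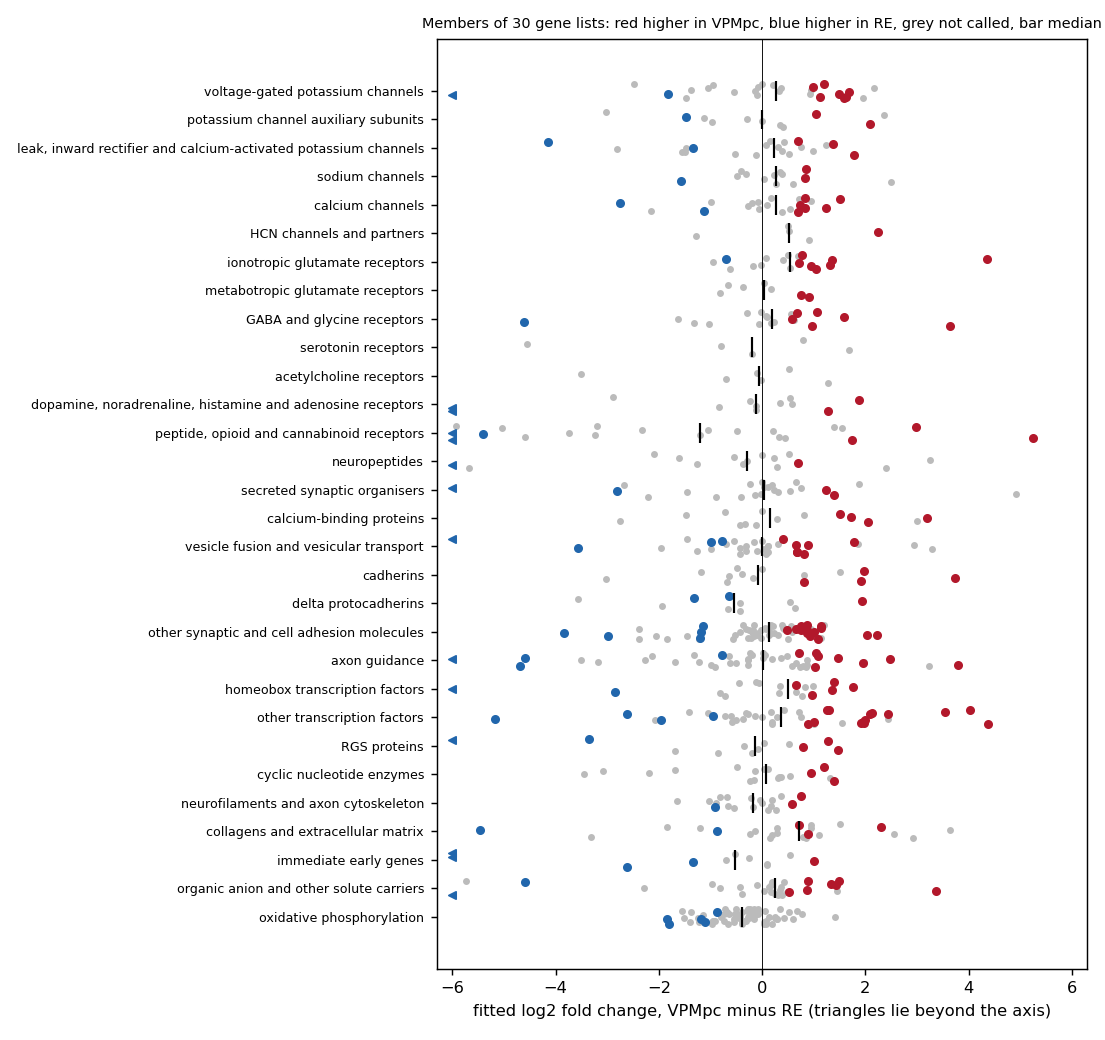
Fitted log2 fold change, VPMpc minus RE (x axis), of the members of 30 gene lists (rows), 1 point a gene, red where higher in VPMpc, blue where higher in RE and grey where not called, with a bar at the median and triangles for 14 genes beyond the axis. Called genes of the glutamate receptors and transcription factors lie mostly to the right, and all 5 called genes of oxidative phosphorylation lie to the left.

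Over all lists, 644 genes were tested, of which 120 were higher in VPMpc and 55 in RE, with a median log2 fold change of 0.03. Of all 16527 genes tested, 886 (5.36%) and 646 (3.91%) were, and of the 9537 genes of at least 10 CPM, 790 and 279.

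Across the 22 nuclei, 1290 genes of at least 10 CPM had their highest mean in VPMpc and 232 in RE. The genes with VPMpc and RE first and second numbered 113, against a median of 31 over the 231 pairs of nuclei, and 22 pairs had more. For 59 genes the pair was lowest and next to lowest. Because the pair was chosen on shared values, these counts are descriptions only. Of the shared genes, Peg10, an imprinted gene, was at a mean of 55.1 CPM in VPMpc and 115 CPM in RE with 16.9 CPM in the next nucleus, AD. Without VPMpc replicate 5, at 153 CPM, its VPMpc mean was 35.6 CPM, still second. Kctd4 was at 30.2, 41.2 and 11.5 CPM in VPMpc, RE and PO. Nrgn, which encodes the calmodulin-binding neurogranin, was at 22.1, 20.3 and 7.89 CPM in VPMpc, RE and AM. The VPMpc mean of Nrgn rested on replicate 4, at 96.6 CPM, and without it was 7.198 CPM, below AM. Dcc, the netrin receptor, was at 94.97 and 108 CPM, with 53.8 CPM in AV. Of these 4 genes, Peg10, Kctd4 and Dcc thus had VPMpc and RE as the highest 2 nuclei also without the highest library of either. Gda, guanine deaminase, was at 0 to 59.5 CPM in VPMpc (median 8.66) and 36.4 to 132 CPM in RE (median 85.6), with reads in 5 of the 6 VPMpc libraries. RE ranked first and VPMpc second by means, but without VPMpc replicate 4, at 59.5 CPM, the VPMpc mean was 6.15 CPM, below IAD at 7.999 CPM. Nox4, an NADPH oxidase, was highest in RE, at 18.3 to 82.8 CPM in RE (median 49.1), and was at 0 to 4.07 CPM in VPMpc (median 0.852). No other nucleus had a Nox4 mean above 2.29 CPM, in VA.

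**Figure D5:**
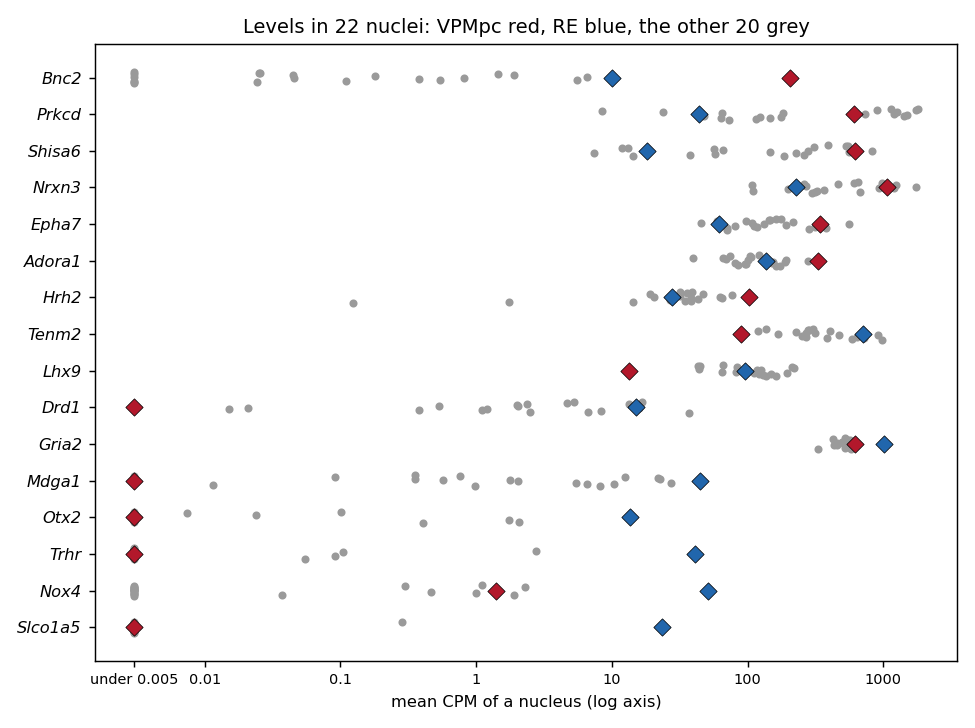
Mean CPM (x axis, log) of 16 genes (rows) in the 22 nuclei, 1 point a nucleus, VPMpc in red, RE in blue and the other 20 in grey, with the lowest means at the left edge. Bnc2 is highest in VPMpc and next in RE, Slco1a5, Nox4, Trhr, Otx2 and Mdga1 are highest in RE, and Tenm2 and Lhx9 are lowest in VPMpc.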

How the data were processed

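RNA from pools of hand-picked, retrogradely labelled thalamic neurons was amplified as cDNA and sequenced, per the labels' protocols. Reads were processed by the authors with cutadapt 1.16, STAR 2.5.3a and featureCounts 1.52 on mm10, per the submitters' processing notes. The settings used are not stated in the sources at hand. The deposited values are raw whole-number counts per gene for 16538 genes, each with at least 23 counts over the 120 libraries, and a table of library measures. The kit is not stated to mark strand, so overlapping genes, antisense partners and close copies are uncertain.

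From these counts, edgeR 4.0.16 was used for 1 fit of the 120 libraries in 24 groups by nucleus, tracer and target, with TMM factors and genes kept by filterByExpr (minimum count 10, minimum total 15). The contrast was VPMpc minus RE, tested by the quasi-likelihood F test with Benjamini-Hochberg adjustment at 0.05. All adjusted p-values of genes are from it unless another tool is named. Log2 fold changes are fitted values, and SE is their standard error. CPM used TMM library sizes. For a gene with no read in a group, the fold bound sets the mean of the other group against 3 counts over that group. Technical measures were compared by an exact two-sided permutation test over 3003 arrangements, adjusted over 12 measures. The 14 libraries of the pair are from separate animals. The 120 libraries of the fit came from 85 animals, and 7 other libraries, 4 of AM and 3 of IAD, came from animals of the pair. The fit had no term for the animal. Exon lengths and gene positions are from the GRCm38 annotation, and windows are the 250 bases before RefSeq starts that lie within 10 bases of its starts.

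The nuclei, members and gene lists were chosen with earlier results of these data known. Named genes were the markers of the pair, the 15 largest non-overlapping changes per direction at 10 CPM or more, up to 3 called genes per list and direction at 5 CPM or more, and channel and receptor genes with high levels that were not called. Also named were genes of largest PC2 weight, genes highest or lowest in both nuclei, genes highest in VPMpc or RE, and cell type markers. These rules gave 202 genes, of which 82 are described. Of the 139 that were called, 48 lost the call when 1 library was left out, and 5 of those 48 are described, so the genes in the text are steadier than the whole set. The alternatives tried were DESeq2 1.42.0, DESeq2's size factors, no filter, sex or cell number as a term, the 14 libraries alone, a replicate block and each library left out. Alternatives chosen after seeing the data were single amplification dates, males only, thinning to the lowest total, offsets for gene length, edgeR's newer method, means of genes high in both nuclei without the highest library, and gene lists without Bnc2 and Slco1a5. Replicate numbers did not pair the libraries.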

Additional observations from a re-analysis of the deposited data

Results flagged for a closer look

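In 27 of 164 groups of libraries, which are the 82 genes named in the text in each nucleus, 1 library lay far from all others of its nucleus by Dixon's test. Chance would set apart about 1 in 20 groups or fewer if values were normally distributed, which was not tested for CPM. The 27 groups are thus a description. No cause was tested. VPMpc replicate 2 held 9 of the 27 and RE replicate 3 held 7.

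VPMpc replicate 2 was the highest VPMpc library for Fign (898 CPM), Slc4a4 (389 CPM), Lef1 (628 CPM), Gabrd (156 CPM), Gabbr2 (4212 CPM), Tenm2 (177 CPM), Pcdh7 (842 CPM) and Atp2b4 (328 CPM). It was the lowest for Syt4, at 267 CPM. For Gabrd the other VPMpc libraries lay at 0.486 to 33.5 CPM, and for Lef1 at 118 to 207 CPM. VPMpc replicate 3 was the lowest for Rora (1418 CPM, with the others at 2415 to 2957 CPM) and Gria3 (136 CPM). VPMpc replicate 4 was the highest for Gbx2 (113 CPM), Htr2c (628 CPM), Gda (59.5 CPM) and Nrgn (96.6 CPM). VPMpc replicate 5 was the highest for Npsr1, at 47.2 CPM, and for the share of counts from Rn18s-rs5, at 1.2% with the others at 0.199% to 0.496%. VPMpc replicate 6 was the highest for Gabrq (3.71 CPM) and Cntnap3 (14.02 CPM).

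RE replicate 3 was the highest RE library for Slco1a5 (93.6 CPM), Mdga1 (112 CPM), Gria2 (1373 CPM), Pcdh17 (521 CPM), Fos (114 CPM), Sst (28.6 CPM) and Peg10 (347 CPM). For Sst the other RE libraries reached 2.61 CPM. RE replicate 2 was the only RE library with reads of Npsr1 (0.311 CPM). RE replicate 6 was the highest for Bnc2 (38.4 CPM, with the others at 0.311 to 13.4 CPM).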

How the results depend on the processing

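Leaving out 1 library gave 1125 to 1625 genes in all, 708 to 918 higher in VPMpc and 417 to 707 higher in RE, and always 2 technical measures that passed. Of 68 named genes that were called, Bnc2 and Slco1a5 included as a description, 68 kept their call in edgeR with DESeq2's size factors, no filter, sex as a term, cell number as a term and thinning to the lowest total. DESeq2 itself kept 65 and did not call Slco1a5, Trhr and Otx2. Offsets for gene length ended the call of Atp5g3. The 14 libraries alone gave 944 genes, 283 of them higher in RE. DESeq2 gave 1335 genes higher in RE and the newer quasi-likelihood method 1537 higher in VPMpc. The cause of these changes was not tested.

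Restricting the libraries lowered the counts, with fewer libraries by construction. With the VPMpc date of 2 libraries, 654 genes were called (517 higher in VPMpc, 137 in RE), and 46 of the 68 named calls remained. With the VPMpc date of 4 libraries 61 remained. The earlier RE date gave 830 (467 and 363) with 67 named calls, and the later RE date gave 526 (315 and 211) with 49. Males alone gave 342 (215 and 127) with 42.

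Libraries 1 to 6 of each nucleus gave 415 genes with a replicate block (273 higher in VPMpc, 142 in RE) and 445 without it (334 and 111). Same-numbered libraries correlated at -0.03 to 0.09 after centring, and 0 of 6 VPMpc libraries correlated best with their own number, so they share only a number. RE ranked 2nd on PC2 with 200 or 1000 genes. Genes with few reads limit the comparison: of the genes higher in VPMpc, 66 had reads in only 1 or 2 of its libraries, and 17 of those higher in RE.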
